A study of Mus musculus with 12 samples.

Results

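The Zscan4 cluster is a tandem array of near-identical genes on mouse chromosome 7 whose transcripts appear in a short burst as the embryo starts its own transcription. Its members were taken by name as every row of the count tables called Zscan4 followed by a letter from a to f, which gave 6 rows (Zscan4a, Zscan4b, Zscan4c, Zscan4d, Zscan4e and Zscan4f) of the 23284 genes counted in all 12 libraries. Each copy was described on its own and as the sum of the 6 rows. The libraries came from C57BL/6J mouse embryos that had been microinjected as zygotes with an antisense oligonucleotide (ASO) at 0.75 mM, either the LINE1 ASO or the RC ASO. LINE1 is the most abundant family of active retrotransposons in the mouse genome, and the ASO carries its name. Embryos were collected at the early 2C (2-cell) stage, roughly 9 h past the injection (33 h past hCG), or at the 4C (4-cell) stage after 2 days in culture, which gave 4 groups of 3 libraries: early 2C RC, early 2C LINE1, 4C RC and 4C LINE1. Every embryo in the design was injected, so no library of uninjected embryos enters any comparison, and the labels do not spell out the letters RC. The knockdown could not be checked in these counts, since retrotransposon RNA was not analysed here.

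Zscan4 proteins carry a SCAN domain, which pairs such proteins with each other, and zinc fingers that bind DNA. In mouse embryos the genes are switched on at the 2-cell stage, during zygotic genome activation. The transcription factor Dux can activate the genes, and they fall silent again within a day or so. In embryonic stem cells they mark the small fraction of cells that pass through a 2-cell-like state, and Zscan4 has been tied there to telomere elongation through recombination. Zscan4d has been described as the main copy in 2-cell embryos, and Zscan4c as the main copy in embryonic stem cells.

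The copies are so alike that short reads cannot always be assigned to 1 of them, and the sequences below are shown because they set how far a count of a single copy can be read. In the GENCODE M21 reference the transcripts of any pair of copies were 96.6% to 99.7% identical. Over 1515 coding positions aligned in all 6 copies, 72 were variable, and Zscan4d alone differed from the other 5 at 19 of them, more than any other copy. The 50-base stretch of the coding sequence with the most variable positions was the following, with capitals at the 8 positions where the copies differ.
Zscan4a: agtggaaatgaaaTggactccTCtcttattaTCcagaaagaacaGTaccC
Zscan4b: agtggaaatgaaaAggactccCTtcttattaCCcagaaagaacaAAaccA
Zscan4c: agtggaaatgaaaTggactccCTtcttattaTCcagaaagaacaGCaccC
Zscan4d: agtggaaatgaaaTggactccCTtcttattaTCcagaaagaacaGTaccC
Zscan4e: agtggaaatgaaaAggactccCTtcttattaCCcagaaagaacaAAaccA
Zscan4f: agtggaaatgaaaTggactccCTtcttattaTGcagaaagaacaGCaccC
In this stretch Zscan4b and Zscan4e were the same in every base. The first 50 coding bases, by contrast, were identical in all 6 copies, so that a read from them fits every copy.
all 6 copies: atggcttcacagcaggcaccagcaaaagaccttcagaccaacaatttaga

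Reads here were 50 bases long, and a 50-base window of a transcript that occurs in no other gene marks its copy. Such windows made up 50.4% of the Zscan4d transcript, 36.4% of Zscan4a, 14.5% of Zscan4c, 9.7% of Zscan4b, 8.4% of Zscan4e and 4.7% of Zscan4f. The labels do not say how reads that fit several copies were counted. The count of a single copy is therefore uncertain, least so for Zscan4d and Zscan4a, and the sum can be too low where reads that fit several copies were dropped and too high where they were counted for each copy. Windows shared with another Zscan4 row made up 47.9% (Zscan4d) to 91.6% (Zscan4e) of a transcript. The array also holds 3 Zscan4 pseudogenes that can share reads. In the RefSeq annotation the 9 loci lie in the order Zscan4a, Zscan4b, Zscan4c, Zscan4-ps1, Zscan4d, Zscan4e, Zscan4f, Zscan4-ps2 and Zscan4-ps3, with Zscan4a and Zscan4e listed as pseudogenes there. The pseudogenes named ps were not analysed here.

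The start of the genes is shown for Zscan4c and Zscan4d. The copies were low or high together in most libraries, and neither their promoters nor reads shared between them were tested as a cause. RefSeq promoters (build GRCm38.p6) matched 4 of the 6 copies, Zscan4b, Zscan4c, Zscan4d and Zscan4f, and these were 95.3% to 99.3% identical to each other. The 250 bases before the annotated start of Zscan4c, plus strand, chr7:11005495-11005744, and of Zscan4d, minus strand, chr7:11166149-11166398, are given 5′ to 3′, with TATAAAA in capitals.
Zscan4c: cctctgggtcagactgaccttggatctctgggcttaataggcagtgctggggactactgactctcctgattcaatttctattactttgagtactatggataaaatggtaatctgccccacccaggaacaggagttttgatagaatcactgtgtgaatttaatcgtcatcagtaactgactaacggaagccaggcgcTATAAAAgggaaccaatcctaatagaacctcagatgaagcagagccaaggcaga
Zscan4d: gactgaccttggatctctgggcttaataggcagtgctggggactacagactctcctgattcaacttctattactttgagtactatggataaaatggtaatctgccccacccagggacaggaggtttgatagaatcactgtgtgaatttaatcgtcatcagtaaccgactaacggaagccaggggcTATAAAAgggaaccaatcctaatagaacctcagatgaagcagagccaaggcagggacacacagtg
The letters TATAAAA, searched on both strands, were found in 4 of 4 Zscan4 promoters and in 5.48% of 32851 RefSeq promoters of the same length. Since the 4 are near-identical copies, they are not separate finds, and no enrichment can be read from them. The match began 54 bases before the annotated start of Zscan4c, 65 bases before that of Zscan4d and 31 bases before those of Zscan4b and Zscan4f.

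Library totals ran from 19160716 to 51854939 counts, and levels are given as CPM, the count scaled to a fixed library total after TMM correction, on 1 scale for all 12 libraries. Nothing in the labels says that the 3 libraries of a group came from separate pools of embryos, so the spread and the p-values measure the difference between libraries, which may be technical. No pair of libraries in a group agreed within sampling noise (chi-square per degree of freedom 14.7 to 86.8). The third 4C LINE1 library stood apart from the other 2 of its group (86.7 and 86.8, against 35.9 between those 2), and results that rest on this group are given with and without it. Summed levels of 11 transcripts typical of oocytes and cleavage embryos were 4270 to 5240 CPM at early 2C, 2750 to 3210 CPM in 4C RC and 2020 to 2230 CPM in 4C LINE1. The sums were thus lower in every 4C LINE1 library than in any 4C RC library, but most of the 11 went the other way (median log2 difference 0.21). The sums were carried by the most abundant ones, Dppa3 (mean 1460 CPM in 4C RC against 1040 in 4C LINE1) and Kdm5b (1080 against 655). Of the 11, 1 was called lower at 4C (Kdm5b, a histone demethylase, edgeR adjusted p = 0.0301), where 2.61% of all genes were. Without the third 4C LINE1 library 3 were lower and 1 higher, against 9.38% and 4.89% of all genes. The part of the lower sums in the Zscan4 differences at 4C was not tested. Summed levels of cumulus cell transcripts were 6.17 to 30.1 CPM, those of sperm at most 5.08 CPM and those of blood at most 0.604 CPM.

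Across the 4 groups the summed Zscan4 level was highest on average in 4C LINE1 (29.8 ± 24.3 CPM, mean ± SD, n = 3 here and below), followed by early 2C RC (13.4 ± 0.798), early 2C LINE1 (7.74 ± 1.53) and 4C RC (1.11 ± 0.785). The 6 rows together held 1039 counts in early 2C RC, 746 in early 2C LINE1, 76 in 4C RC and 2532 in 4C LINE1. The groups of early 2C did not overlap each other and both lay above 4C RC, while the libraries of 4C LINE1 spread over the levels of all of them except 4C RC. In bulk libraries, fewer cells that transcribe Zscan4 and less Zscan4 RNA per cell cannot be told apart.

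**Figure D1:**
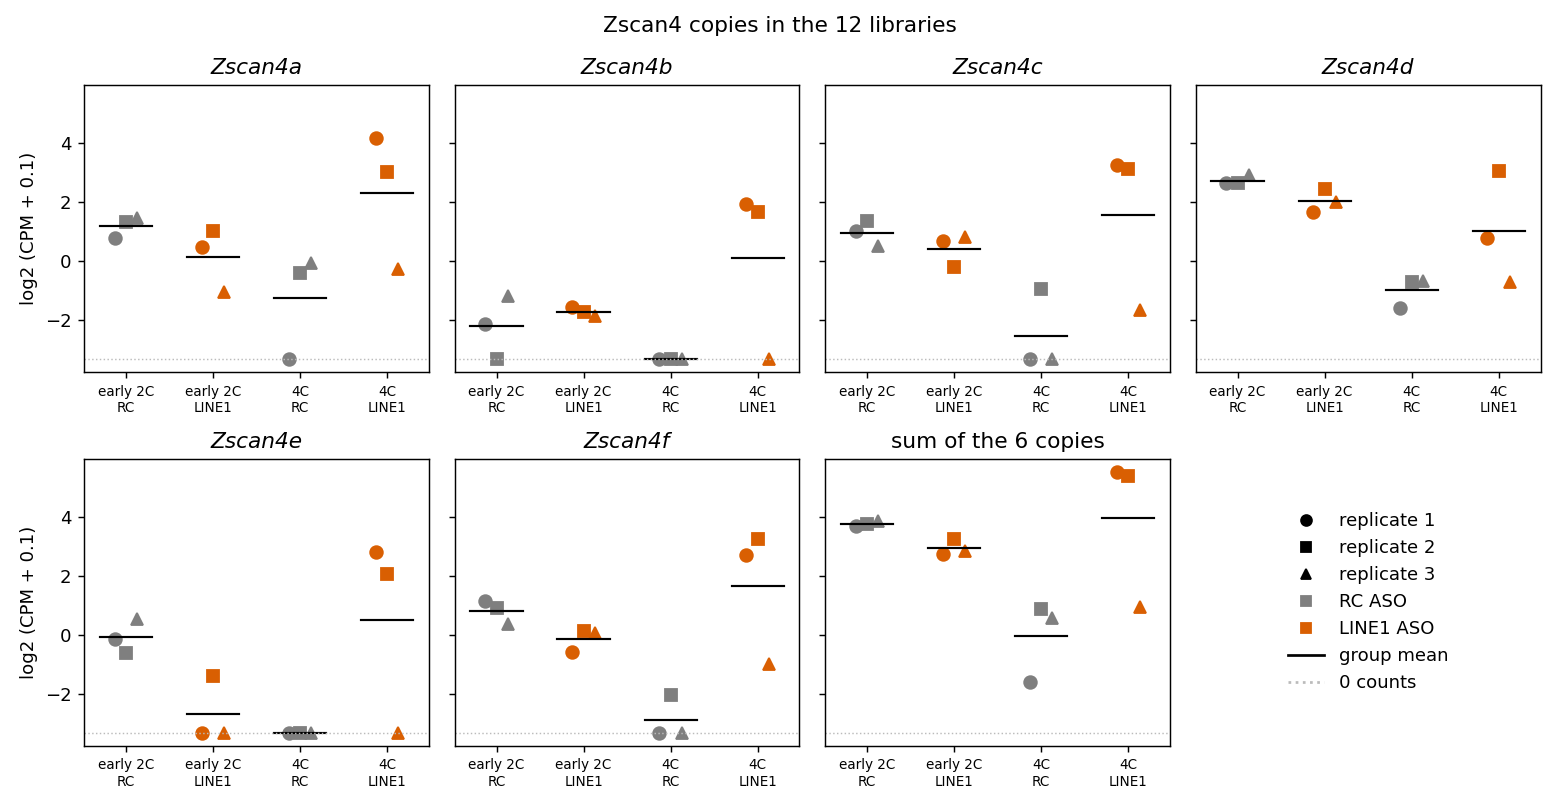
Level of each Zscan4 copy and of their sum in every library, as log2 (CPM + 0.1), with 1 marker per library, grey for RC ASO, orange for LINE1 ASO and a line at the group mean of the log values. In 4C LINE1, replicates 1 and 2 sit high for every copy except Zscan4d in replicate 1, and replicate 3 sits near or among the RC libraries, with Zscan4b and Zscan4e at 0 counts.

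At early 2C, the question was whether Zscan4 RNA differed a few hours after the LINE1 ASO was injected. The summed level was 12.7, 13.3 and 14.3 CPM in the 3 RC libraries and 6.65, 9.5 and 7.08 CPM in the 3 LINE1 libraries. All LINE1 libraries were thus below all RC libraries. The log2 difference of the sum was -0.81 (SE 0.213); no p is given for a sum over chosen rows.

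Zscan4d, the copy with the most counts at this stage, had 145, 168 and 195 counts in RC and 142, 132 and 112 in LINE1, or 6.57 ± 0.747 and 4.1 ± 1.13 CPM. Its groups did not overlap in CPM, and its log2 difference was -0.70 (SE 0.285). Zscan4e had 19, 15 and 35 counts in RC and 0, 7 and 0 in LINE1, a log2 difference of -3.38 (SE 1.21). Zscan4f had 50, 48 and 31 counts in RC and 26, 25 and 27 in LINE1, a log2 difference of -1.02 (SE 0.581). Each of these 3 copies was lower in every LINE1 library than in any RC library, as were 6.41% of all genes tested, with 7.83% higher in every LINE1 library. Zscan4a (2.22 ± 0.55 against 1.2 ± 0.777 CPM) and Zscan4c (1.91 ± 0.561 against 1.3 ± 0.47 CPM) had lower means in LINE1 with libraries that overlapped. Zscan4b, with 12 counts in RC and 21 in LINE1 over 3 libraries each, was too low to be tested.

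None of the 5 copies tested passed the threshold at early 2C (edgeR's quasi-likelihood test, Benjamini-Hochberg adjusted p 0.357 to 0.832 over 13625 genes), where 0.0954% of all genes were called lower and 0.272% higher. Without adjustment, 2 copies passed 0.05 in the same edgeR test, Zscan4d with 0.0241 and Zscan4e with 0.0115. Zscan4e passed the low-count filter only through the RC libraries, where it was high, so that its p adds no support. DESeq2 gave none of the copies an adjusted p at this stage. The median log2 difference of all genes was -0.01.

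At 4C, when the cluster is normally shut off, the same ASO comparison had the opposite sign. The summed level was 0.233, 1.74 and 1.37 CPM in the 3 RC libraries and 46.2, 41.4 and 1.84 CPM in the 3 LINE1 libraries. The first and second LINE1 libraries held 1251 and 1230 Zscan4 counts, while the third held 51, little above the 5, 37 and 34 of RC. The log2 difference of the sum was 4.65 (SE 1.19) with all libraries and 5.16 (SE 0.519) without the third LINE1 library.

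Zscan4f had 0, 3 and 0 counts in RC and 176, 282 and 11 in LINE1, and was the 1 copy whose groups did not overlap at 4C, as was the case for 15.7% of all genes in this direction and 11.5% in the other. Its group ratio, corrected for library size, was 125, with a counting interval of 42.5 to 609 (95%, covering counting error only). It was the only copy of 4 tested to pass the threshold at 4C (edgeR adjusted p = 0.0203), with 1.93% of 14231 genes called higher and 2.61% lower. With so few counts in RC, it passed the low-count filter only through the LINE1 libraries, where it was high, so that its call adds no support.

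Zscan4a had 0, 14 and 21 counts in RC and 486, 236 and 20 in LINE1 (log2 difference 4.05, SE 1.22, edgeR adjusted p = 0.0914). Zscan4c had 0, 9 and 0 counts in RC and 254, 259 and 6 in LINE1 (5.33, SE 1.52, adjusted p = 0.0742). Zscan4d had 5, 11 and 13 counts in RC and 44, 242 and 14 in LINE1 (2.92, SE 0.989, adjusted p = 0.102). These 3 copies were above every RC library in the first and second LINE1 libraries, and in each of them the third LINE1 library was within the range of RC in CPM. All 4 copies tested had an unadjusted p below 0.05 in the edgeR fit. Zscan4c, like Zscan4f, passed the low-count filter only with the LINE1 libraries where it was high, so that its p adds no support. The median log2 difference of all genes was 0.05. Without the third LINE1 library the log2 differences were 4.55 (SE 0.846) for Zscan4a, 5.85 (SE 1.05) for Zscan4c and 3.38 (SE 0.881) for Zscan4d. That of Zscan4d was 1.26 (SE 1.43) without the second LINE1 library, and that of Zscan4c was 10.28 (SE 2.47) without the second RC library, which held all 9 RC counts of this copy, so that its size then depends on the prior count.

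Zscan4b and Zscan4e had no count in any 4C RC library, which allows a level of up to 0.141 CPM in the shallowest of them, and were not tested because of their low counts. Zscan4b had 102, 91 and 0 counts in the LINE1 libraries, at least 51.5-fold higher, and Zscan4e had 189, 120 and 0, at least 82.4-fold higher, both against a floor of 3 counts over the RC group. For both, the third LINE1 library was at 0 like the RC libraries.

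The call at 4C rests on single libraries. Without the third LINE1 library all 4 copies tested before passed the test and were higher, with edgeR adjusted p from 0.000423 (Zscan4f) to 0.019 (Zscan4d). Zscan4b and Zscan4e were called higher too. In that fit Zscan4b, Zscan4c, Zscan4e and Zscan4f passed the low-count filter only with the LINE1 libraries where they were high. Their calls therefore add no support. Over all genes, 4.89% were called higher and 9.38% lower in that fit. Without any 1 of the other 5 libraries of the stage no copy passed, with edgeR adjusted p of 0.0659 to 0.116 for Zscan4f. Other choices of fit gave 1 to 5 copies higher.

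In RC embryos the step from early 2C to 4C gives the net change between these stages, with no stage in between sampled. Zscan4d went from 6.13, 6.16 and 7.43 CPM at early 2C to 0.233, 0.518 and 0.523 CPM at 4C. Every 4C library was far below every early 2C library, with a log2 difference of -3.93 (SE 0.831, edgeR adjusted p = 0.000533 in the fit of all 12 libraries). Zscan4c had 148 counts at early 2C and 9 at 4C over the group (log2 difference -3.76, SE 1.27, adjusted p = 0.015). All 9 counts lay in 1 library, the second of 4C RC, and the others were at 0, so that the size rests on it (-8.74, SE 2.09, without that library, where it depends on the prior count). Without the third 4C RC library Zscan4c no longer passed (-3.16, SE 1.35, edgeR adjusted p = 0.051). Zscan4f had 129 and 3 counts, a ratio of 0.0266 with a counting interval of 0.00541 to 0.0794 (edgeR adjusted p = 0.00164). Zscan4e had 69 and 0 counts, at least 20.1-fold lower (edgeR adjusted p = 0.0148). It passed the low-count filter only with early 2C RC libraries, where it was high, so that its call adds no support. Zscan4c, Zscan4d, Zscan4e and Zscan4f, 4 of the 5 copies tested, were called lower. Of 15760 genes, 36.6% were called lower and 36.1% higher.

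Zscan4a did not pass the test in RC embryos (173 and 35 counts, log2 difference -2.13, SE 1.05, edgeR adjusted p = 0.0793), although its 3 libraries at 4C were all below those at early 2C. Zscan4b, not tested, had 12 and 0 counts, at least 3.5-fold lower, and its groups overlapped because 1 early 2C library was also at 0. In all, 5 of the 6 copies had groups that did not overlap, against 38.7% of all genes in this direction and 37.3% in the other. The sum changed by -3.58 on the log2 scale (SE 0.835), with a median of 0.09 over all genes.

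In embryos given the LINE1 ASO the same step went the other way for most copies. Zscan4a had 60, 48 and 11 counts at early 2C and 486, 236 and 20 at 4C (log2 difference 2.88, SE 1.03, edgeR adjusted p = 0.0199). Zscan4e had 0, 7 and 0 counts at early 2C and 189, 120 and 0 at 4C (5.37, SE 1.77, adjusted p = 0.015). Zscan4f had 26, 25 and 27 counts at early 2C and 176, 282 and 11 at 4C (2.71, SE 0.959, adjusted p = 0.0194). These 3 of the 5 copies tested rose, where 37.6% of all genes were called higher and 34.2% lower, but for none of the 6 copies were the groups free of overlap, against 40.8% of all genes higher without overlap and 38% lower. The third 4C library was the lowest of its group for each copy.

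Zscan4c had a log2 difference of 2.22 (SE 1.09, edgeR adjusted p = 0.078) in these embryos. Zscan4d did not move with the others, with 142, 132 and 112 counts at early 2C and 44, 242 and 14 at 4C (log2 difference -0.26, SE 0.715, adjusted p = 0.76). Its sign turned with scaling by library totals (0.11) and without the first (0.08) or the third 4C library (0.25). The number of copies called higher was 5 without the third 4C library (with Zscan4b, which entered that fit only through its high libraries), 1 without the first 4C library, and 0 without the first or the third early 2C library. Without the second 4C library, Zscan4d was called lower, with a log2 difference of -1.94. The sum changed by 1.95 (SE 0.747), and by 2.5 (SE 0.435) without the third 4C library, with a median of 0.24 over all genes.

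The ASO difference at 4C was then set against that at early 2C in 1 fit of all 12 libraries (the interaction of stage and ASO). Zscan4f differed between the stages, with a log2 difference of differences of 7.79 (SE 1.57, edgeR adjusted p = 0.0386), a size that depends on the prior count because 4C RC held 3 counts of this copy. It was the 1 copy of 5 tested to pass, where 0.647% of 15760 genes were called higher and 0.47% lower. Zscan4a (5.00, SE 1.46, adjusted p = 0.0968), Zscan4c (5.98, SE 1.67, adjusted p = 0.0883) and Zscan4d (3.68, SE 1.07, adjusted p = 0.0967) had the same sign and missed the threshold, as did Zscan4e (adjusted p = 0.0577), which had 0 counts in 4C RC. All 5 had an unadjusted p below 0.05 in this edgeR fit. Zscan4e passed the low-count filter only with libraries where it was high, here and on leaving out a library. Its p therefore adds no support. The sum had a difference of differences of 5.53 (SE 1.12), and the median over all genes was 0.19. Without the third 4C LINE1 library all 5 copies passed, and so did Zscan4b, which entered that fit only through the 2 LINE1 libraries where it was high. Without the second 4C RC library 2 did, without the third 4C RC library 1 did, and without any 1 of the other 9 libraries none did.

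**Figure D2:**
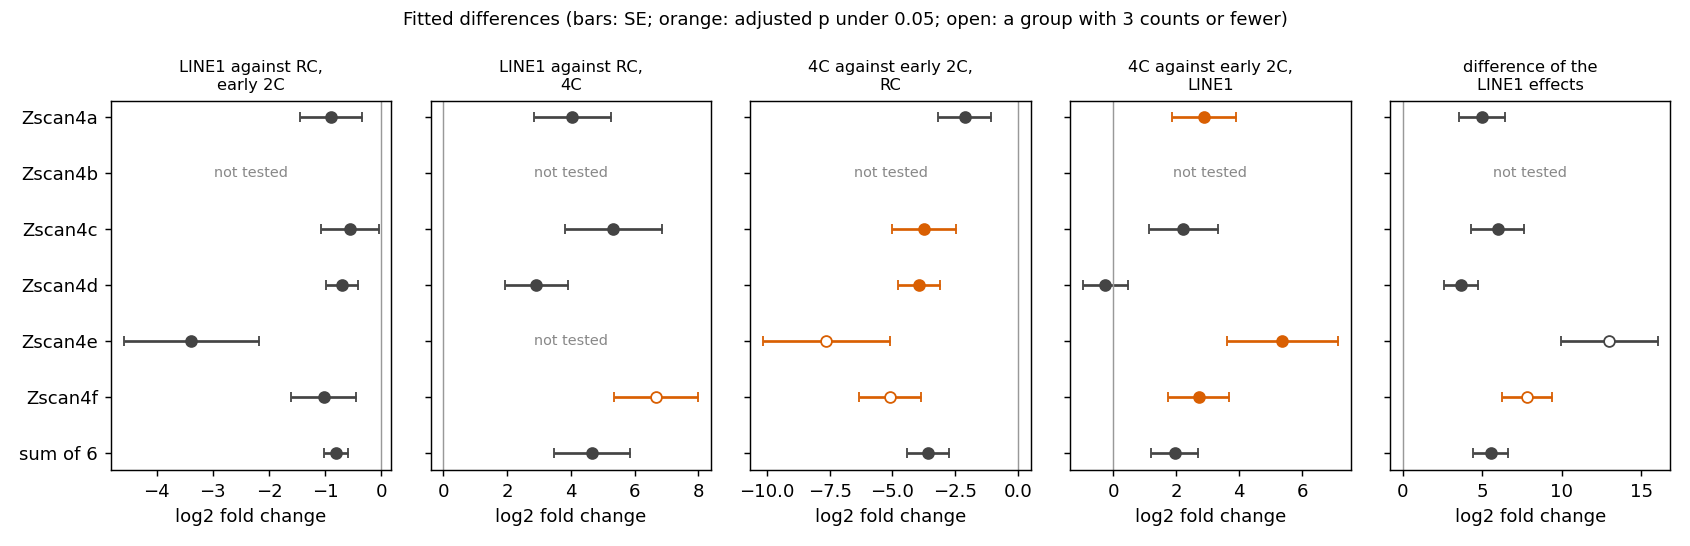
Fitted log2 fold changes of each copy and of the sum in the 5 comparisons, with bars of 1 SE, orange where the adjusted p is under 0.05, and open markers where a group holds 3 counts or fewer, so that the size depends on the prior count. Points lie left of 0 at early 2C, right of 0 at 4C and right of 0 in the difference between stages. No p was computed for the sum.

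The make-up of the cluster also differed between libraries. Zscan4d held 48.2%, 46.3% and 52.0% of the Zscan4 counts in the early 2C RC libraries and 46.1%, 55.9% and 55.4% in the early 2C LINE1 libraries. About the same share was thus seen at early 2C with either ASO (48.8% ± 2.91 and 52.5% ± 5.54, two-sided exact permutation test over libraries, p = 0.4). In the 4C LINE1 libraries its share was 3.52% (Clopper-Pearson 95% interval 2.57% to 4.69%), 19.7% (17.5% to 22.0%) and 27.5% (15.9% to 41.7%). All 3 were below every early 2C library (16.9% ± 12.2 against 52.5% ± 5.54 in LINE1 embryos, two-sided exact permutation p = 0.1, the smallest that 3 against 3 libraries allow). The 4C RC libraries held 5, 37 and 34 Zscan4 counts in all, too few to give a share within narrow limits (Zscan4d 56.0% ± 38.4).

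The order of the copies depends on how shared reads were counted, which is not known, so it is given on both scales. Per kilobase of transcript, which fits if shared reads were spread over the copies, Zscan4d led at early 2C with 2.89 ± 0.329 CPM per kb in RC and 1.8 ± 0.499 in LINE1. No library of any other copy at that stage reached the lowest of these Zscan4d values with the same ASO. Behind it in RC came Zscan4a (0.973 ± 0.241), Zscan4f (0.921 ± 0.257) and Zscan4c (0.839 ± 0.246), which overlapped each other. Zscan4e (0.513 ± 0.229) overlapped Zscan4c, and Zscan4b (0.088 ± 0.0975) lay below all of them. In early 2C LINE1, Zscan4c (0.571 ± 0.207), Zscan4a (0.528 ± 0.341) and Zscan4f (0.458 ± 0.132) again overlapped, followed by Zscan4b (0.115 ± 0.0176) and Zscan4e (0.0538 ± 0.0932), which overlapped each other. In 4C RC, Zscan4a (0.22 ± 0.195) and Zscan4d (0.187 ± 0.0731) came first and overlapped. Per 1000 unique windows, which fits if only reads of 1 copy were counted, Zscan4f came first at early 2C with 20.3 ± 5.66 CPM in RC and 10.1 ± 2.91 in LINE1, and no library of Zscan4d in RC (5.86 ± 0.666) reached the lowest Zscan4f value. Which copy led at early 2C thus cannot be told from these counts. This scaling was added after the data were seen, and it leaves differences of a copy between groups as they are.

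In 4C LINE1 the order by mean per kilobase was Zscan4a (3.89 ± 3.8 CPM per kb), Zscan4f (2.99 ± 2.53), Zscan4c (2.68 ± 2.24), Zscan4e (2.1 ± 2.01), Zscan4d (1.51 ± 1.81) and Zscan4b (1.28 ± 1.13), and the spread between libraries was larger than any step in it. Per 1000 unique windows Zscan4f was first (65.8 ± 55.8 CPM) and Zscan4d last (3.05 ± 3.68). Both libraries with high levels disagreed on the order per kilobase. In the first, Zscan4a led with 7.88 CPM per kb and Zscan4d was last with 0.715. In the second, Zscan4f led with 5.19 CPM per kb, and Zscan4d (3.58) and Zscan4a (3.48) were nearly equal. Zscan4a made up 38.8% of the Zscan4 counts in the first library (36.1% to 41.6%) and 19.2% in the second (17.0% to 21.5%), intervals that do not meet but cover counting error only.

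**Figure D3:**
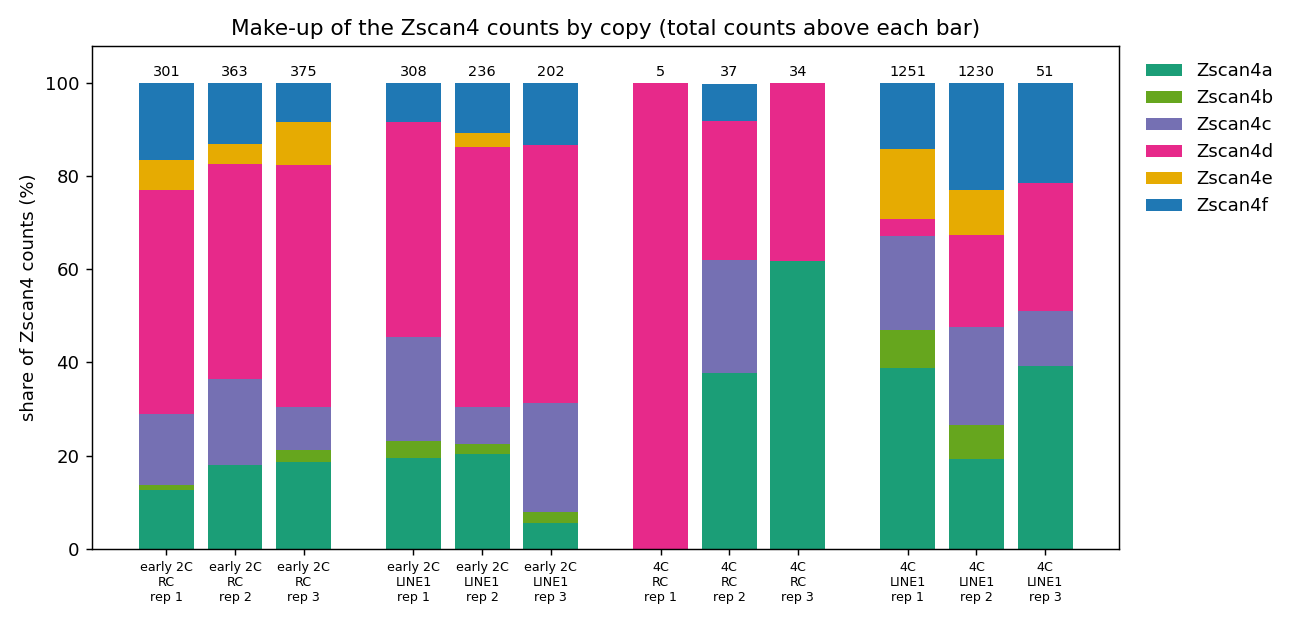
Share of the Zscan4 counts (%) held by each copy in every library, with the total Zscan4 count above each bar. Zscan4d takes 46.1% to 55.9% in the 6 early 2C libraries and 3.52% to 27.5% in the 3 libraries of 4C LINE1, and the bars of 4C RC rest on 5 to 37 counts.

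The genes whose pattern was most like that of the summed cluster were ranked by the root mean square difference of log2 CPM, each row centred on its own mean, with a minimum mean of 10 counts a library. Over all 12 libraries, 3 of the 5 nearest of 14931 genes had a gene name, Svop (0.984), Fezf1 (0.989) and Pet2 (1.03), against a median of 2.25. Svop, a synaptic vesicle protein gene, had 17 to 99 counts in the early 2C libraries, 0 to 3 in the 4C libraries of RC and 71, 96 and 9 in those of LINE1. Fezf1, which encodes a zinc finger repressor active in forebrain development, had 12 to 51 counts at early 2C, 0 to 1 in the 4C libraries of RC and 62, 48 and 17 in those of LINE1. Both were low in 4C RC and highest at 4C in the first and second LINE1 libraries, as Zscan4 was.

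Over the 6 libraries of 4C alone, the nearest of 14384 genes was Rbm43, which encodes an RNA-binding protein (0.612, against a median of 2.61). Rbm43 had 0, 6 and 2 counts in RC and 102, 106 and 3 in LINE1. It differed from Zscan4 at early 2C, where it held 0 to 12 counts a library. Odz2, the older symbol of the teneurin gene Tenm2 (0.902), had no count in the RC libraries of this stage and 45, 77 and 1 in the LINE1 libraries, and Car15, a carbonic anhydrase gene (0.92), had none in RC and 57, 51 and 3 in LINE1. In all 3 the third LINE1 library was close to RC.

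**Figure D4:**
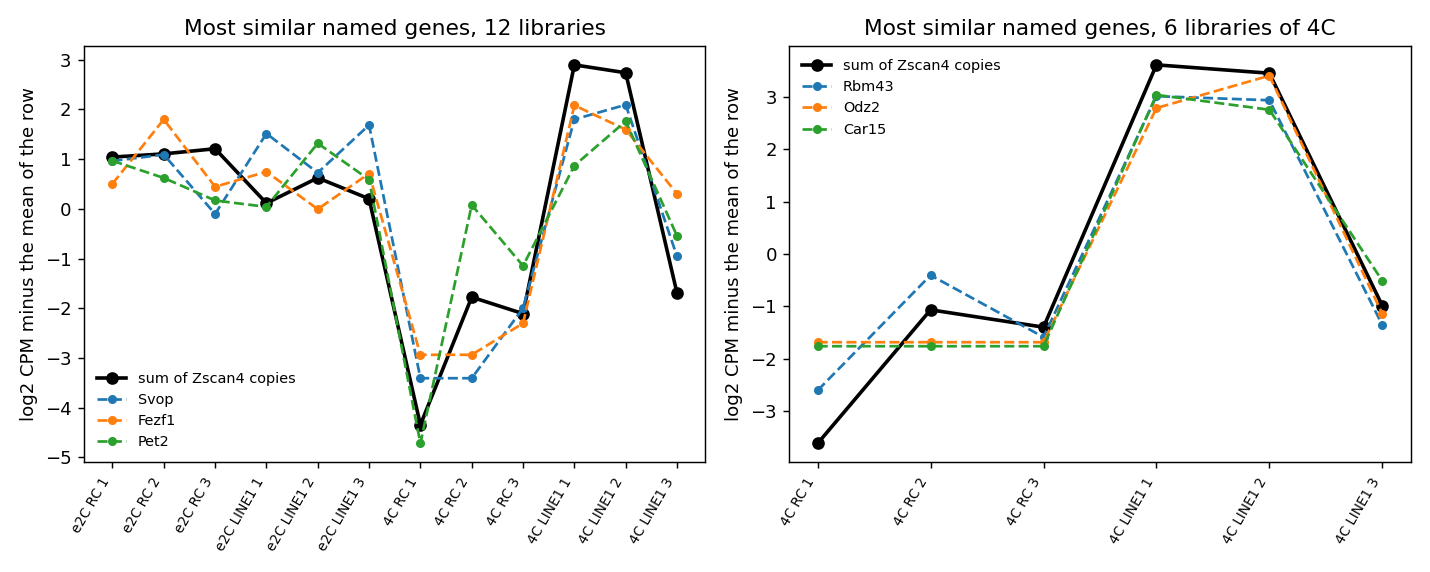
Centred log2 CPM of the summed Zscan4 counts (black) and of the most similar genes with a gene name (dashed) across all 12 libraries, left, and across the 6 libraries of 4C, right, where e2C stands for early 2C and lines join the libraries only to guide the eye. Every row is high in the first and second 4C LINE1 libraries and lower in the third.

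Of the known activators of Zscan4, Dux, Dppa2, Dppa4 and Tbx3 had a row. Dux, a transcription factor that can turn on 2-cell genes, is itself a multicopy gene with uncertain counts. Its level was 29.1, 27.1 and 35.6 CPM in early 2C RC and 27.2, 40.4 and 29.9 CPM in early 2C LINE1. At 4C it was 0.792, 0.0941 and 0.563 CPM in RC and 43.0, 45.8 and 1.27 CPM in LINE1. The third 4C LINE1 library was again far below the other 2, and the groups did not overlap. The log2 difference of Dux was 0.08 (SE 0.165) at early 2C and 5.85 (SE 1.32, edgeR adjusted p = 0.0515) at 4C, and its difference between the stages passed the test (5.85, SE 1.18, adjusted p = 0.0386). At early 2C, Zscan4 was thus lower in every LINE1 library while Dux overlapped between the ASOs.

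Dppa2, which encodes a chromatin protein that acts upstream of Dux in embryonic stem cells, had 756, 757 and 574 CPM in 4C RC and 418, 465 and 456 CPM in 4C LINE1. It was lower in every LINE1 library (log2 difference -0.71, SE 0.179, edgeR adjusted p = 0.0429). Its partner Dppa4 (196 ± 25.2 and 174 ± 34.5 CPM, log2 difference -0.24, SE 0.191) and Tbx3 (log2 difference -1.45, SE 0.687, edgeR adjusted p = 0.272) did not pass. So 0 of the 4 activators rose and 1 fell at 4C (1.93% and 2.61% of all genes), with a median log2 difference of -0.47, and 0 passed in either direction at early 2C, with a median of 0.02. Without the third 4C LINE1 library, 1 rose and 2 fell at 4C: Dux had a log2 difference of 6.38 (SE 0.496, edgeR adjusted p = 8.42e-06), Tbx3 of -2.45 (SE 0.585, adjusted p = 0.0348) and Dppa2 of -0.79 (SE 0.182, adjusted p = 0.00954). This fit, an alternative added for the lists after the data were seen, is used for each list below; in it 4.89% of all genes rose and 9.38% fell.

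The 10 repressors listed, factors such as Kdm1a (a histone demethylase), Setdb1 (a histone methyltransferase), Trim28 (a corepressor of retrotransposons), Chaf1a (a chromatin assembly subunit) and Rif1 (a telomere and replication timing factor that silences Zscan4 in embryonic stem cells), held no call between the ASOs at either stage. Their median log2 difference was 0.03 at early 2C and -0.40 at 4C. From early 2C to 4C, 8 rose and 2 fell in RC embryos, and 4 rose and 2 fell in LINE1 embryos; of all genes, 36.1% rose and 36.6% fell in RC and 37.6% and 34.2% in LINE1, so that the 4 that rose in LINE1 embryos are near the share of all genes. The interaction test passed none of the 10. Without the third 4C LINE1 library 6 of the 10 fell at 4C and 0 rose, against 9.38% and 4.89% of all genes, among them Smchd1, a chromatin protein known from X inactivation (log2 difference -0.92, SE 0.178, edgeR adjusted p = 0.00333), Chaf1a (-0.78, SE 0.18, adjusted p = 0.0102), Kdm1a (-0.69, SE 0.17, adjusted p = 0.014) and Rif1 (-0.55, SE 0.154, adjusted p = 0.0275).

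Of the 12 telomere genes, 0 passed at early 2C and 2 fell at 4C, where 2.61% of all genes fell, with medians of -0.01 and -0.13. Terf1, a protein that binds telomeric repeats, had 99.9, 83.8 and 75.2 CPM in 4C RC and 16.5, 25.1 and 43.0 CPM in 4C LINE1. All its LINE1 libraries were lower, the third least so (log2 difference -1.67, SE 0.31, edgeR adjusted p = 0.0182), and its difference between stages passed as well (-1.67, SE 0.366, adjusted p = 0.0454). Blm, a helicase that resolves recombination structures, had 127, 150 and 102 CPM in 4C RC and 50.6, 66.3 and 76.7 CPM in 4C LINE1 (log2 difference -1.03, SE 0.223, edgeR adjusted p = 0.0263). Without the third 4C LINE1 library 4 of the 12 fell and 0 rose, against 9.38% and 4.89% of all genes, the added ones being Dkc1, a telomerase component (-0.66, SE 0.17, edgeR adjusted p = 0.0173), and Terf2ip, a telomere-binding protein (-1.31, SE 0.41, adjusted p = 0.0463). Uhrf1 and Dnmt1, the DNA methylation maintenance factors reported to bind Zscan4 protein, passed at neither stage between the ASOs, and both fell from early 2C to 4C with either ASO.

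Other transcripts of the 2-cell wave were listed as well, and 17 of the 23 listed had a row. At early 2C, 0 of the 13 tested passed, with a median log2 difference of -0.30. At 4C, 2 of 17 rose and 0 fell, against 1.93% and 2.61% of all genes, with a median of 0.69. From early 2C to 4C the list did not fall as Zscan4 did: 9 of 17 rose and 4 fell in RC embryos (36.1% and 36.6% of all genes), and 13 rose and 1 fell in LINE1 embryos (37.6% and 34.2%). Ubtfl1, a relative of the transcription factor gene Ubtf, went from 1.56 ± 0.518 to 149 ± 34.8 CPM in RC embryos (log2 difference 6.57, SE 0.519, edgeR adjusted p = 1.34e-08), and Ddit4l from 2.94 ± 0.525 to 21.9 ± 3.97 CPM. The named gene among those called at 4C was Ddit4l, a stress-response inhibitor of mTOR signalling, with 20.5, 26.3 and 18.8 CPM in 4C RC and 75.0, 94.5 and 39.7 CPM in 4C LINE1 (log2 difference 1.60, SE 0.288, edgeR adjusted p = 0.0177). Its 3 LINE1 libraries were all above RC, the third included. Usp17l5, a deubiquitinase gene, had 2.38, 9.17 and 2.45 CPM in 4C RC and 23.7, 31.0 and 7.99 CPM in 4C LINE1 (log2 difference 2.08, SE 0.589, edgeR adjusted p = 0.0634). The third LINE1 library of this gene lay within the RC range. Without that library 7 of 17 rose and 0 fell, against 4.89% and 9.38% of all genes, Usp17l5 (log2 difference 2.41, SE 0.525, edgeR adjusted p = 0.00846), Tmem92, a transmembrane protein gene (2.62, SE 0.43, adjusted p = 0.00116), and Tcstv1 (2.77, SE 0.538, adjusted p = 0.00621) among them.

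The other members of the Zscan family, 9 genes with a SCAN domain and zinc fingers outside the array, had 0 calls at early 2C, and at 4C 1 rose and 2 fell, against 1.93% and 2.61% of all genes, with medians of -0.02 and 0.37. Zscan29 rose (26.4 ± 6.75 against 54.6 ± 7.97 CPM, log2 difference 0.99, edgeR adjusted p = 0.0344). Zscan10, a pluripotency factor, fell (13.9 ± 0.736 against 4.45 ± 0.997 CPM, log2 difference -1.71, edgeR adjusted p = 0.0203), as did Zscan5b (170 ± 8.9 against 79.4 ± 19.7 CPM, -1.16, adjusted p = 0.0177). None of the 9 passed the interaction test, and without the third 4C LINE1 library Zscan29 still rose and Zscan10 and Zscan5b still fell. As for Zscan4, the third 4C LINE1 library was the closest to RC for Zscan29 (57.4, 60.8 and 45.6 CPM in the 3 LINE1 libraries). For Zscan5b it was so by a small step (56.6, 90.5 and 91.1 CPM), and for Zscan10 it was not (5.47, 4.41 and 3.47 CPM).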

How the data were processed

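From injected embryos, 12 stranded total RNA libraries (4 groups of 3) were made from 500 pg each, per the labels' protocols, and sequenced on 2 lanes to single reads of 50 nt. The authors deposited raw read counts per gene, 1 table per stage with 23284 genes. Per the submitters' processing notes, the build was mm9 and the tools included TopHat2 2.0.9, Trim Galore 0.4.0, DESeq2 1.12.3 and R 3.3.0, with no steps described. The settings of the counting for strand and for reads that fit several genes are not stated in these sources.

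The tests were run on these counts in R 4.3.3 with edgeR 4.0.16 (filterByExpr, TMM, robust quasi-likelihood F-test, Benjamini-Hochberg adjustment over all tested genes, threshold 0.05). ASO comparisons were fitted within a stage on 6 libraries, stage comparisons and the interaction on all 12. The SE was taken as the absolute log2 fold change over the root of F, and every adjusted p comes from this test unless DESeq2 1.42.0 is named. CPM used 1 set of TMM factors. Group floors were 3 counts, and intervals are exact 95% ones for counting error. The fit was tested on simulated data. Transcripts (GENCODE M21, GRCm38) were aligned with MAFFT 7.526; no coordinates of the authors' build are given. The sum holds the 6 rows that the naming rule matches; leaving out Zscan4b was an alternative. Named similar genes were the 5 nearest by rank, without clone-named ones.

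The members, the gene lists and the tests were chosen with earlier results of these data known. Alternatives covered scaling, filtering, DESeq2, a replicate block, robust estimation, a joint fit and leaving out each library.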

Additional observations from a re-analysis of the deposited data

Results flagged for a closer look

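The LINE1 ASO difference of Zscan4f at 4C minus that at early 2C was 7.79 on the log2 scale (edgeR adjusted p = 0.0386), which marks it because the difference between the stages was itself tested. Its size depends on the prior count, since 4C RC held 3 counts. The summed Zscan4 counts had a difference of differences of 5.53 on the log2 scale, which marks them because every LINE1 library was below RC at early 2C and above RC at 4C. For the sum this difference was not tested. The smallest gap at 4C was between 1.84 CPM in the third LINE1 library and 1.74 CPM in the highest RC library.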

How the results depend on the processing

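The direction of the sum held in every fit run: leaving out 1 library gave log2 differences of -0.98 to -0.70 at early 2C, 4.19 to 5.16 at 4C, -4.03 to -3.12 and 1.48 to 2.50 for the step to 4C in RC and LINE1 embryos, and 5.06 to 6.09 for the interaction. The counts of called copies moved more, except at early 2C, where 0 were called in every fit that gave adjusted values. At 4C the copies called higher numbered 1 as reported, 2 with no low-count filter, 2 with DESeq2, 2 without robust estimation, 5 in the joint fit of 12 libraries and 0 to 6 on leaving out 1 library (6 tested, with Zscan4b and Zscan4e let in by the filter). For the interaction they numbered 1 as reported, 2 with library totals, 6 with DESeq2 and 0 to 6 on leaving out 1 library. For the step to 4C in LINE1 embryos they numbered 3 as reported and 0 to 5 on leaving out 1 library, with 0 to 1 called lower. The cause was not tested.

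Replicate numbers did not pair the libraries at early 2C (correlation of deviations -0.027 to 0.022 for the same number, -0.044 to 0.061 for unlike numbers). At 4C all values were small, 0.016 to 0.098 for the same number and -0.11 to 0.05 for unlike numbers. Whether the 4C libraries were paired cannot be told from these. With the replicate block, 2 copies were called higher at 4C, 0 in the interaction and 1 in the step to 4C in LINE1 embryos, and the other counts stayed within 1.5 times. Zscan4d turned sign in the step to 4C in LINE1 embryos with library totals (0.11) and without 4C LINE1 replicate 1 (0.08) or replicate 3 (0.25), and was -1.94 without replicate 2. Among the other values of single copies, 267 kept their direction and side of the threshold, 29 fell below it and 23 rose past it. Zscan4d's share, also per transcript length, moved by less than 1 SD. DESeq2 gave no adjusted p for the copies at early 2C. Low counts limit single copies most in 4C RC, where none had over 21 in a library.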
